A study of Mus musculus with 598 samples.

Results

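Among 598 sequenced single cells of mouse gastrulation, 85 are knockout cells at E6.75 (embryonic day) that were sorted for expression of a GFP reporter of Mesp1, and the 60 compared here are the most and the least epithelial of these 85. Each knockout cell was scored by the mean of log2(CPM + 1) over Cdh1, Epcam and Cldn6, where CPM is the gene's count per 1000000 of the cell's reads on genes. The 30 cells of highest score are called epithelial-high, the 30 of lowest score epithelial-low, and 25 cells lay between them. The sets were therefore chosen by measured values, and what follows describes them without a test. The labels name neither the targeted gene nor any embryo, litter or pool, so both sets come from what must be treated as 1 sample, and the number of embryos behind each set is not stated. The remaining cells of the series are wild type and sorted on the same reporter, 28.8% of all cells from E6.75 and 57.02% from E7.25. Of these, 83 wild type cells at E6.75 share a library signature with the knockout cells and were scored by the same rule as a set of cells the knockout rule did not use. The E7.25 cells are not used here. The protocol in the labels speaks of adult marrow, so blood genes were read as a check.

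During gastrulation, epiblast cells leave an epithelium at the primitive streak. They loosen their junctions, lower E-cadherin and move off as mesoderm, a step called the epithelial to mesenchymal transition. Cdh1 encodes E-cadherin, the adhesion protein of epithelial cell contacts. Epcam encodes an epithelial adhesion molecule of the cell surface, and Cldn6 encodes claudin-6, a tight junction protein of early embryonic epithelia. Repressors of the Snail and Zeb families bind E-box motifs in promoters of such genes, and the Mesp1 transcription factor marks the mesoderm cells that emerge from the streak.

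The upstream promoters of the score genes found in RefSeq (GRCm38.p6) are shown because the Snail and Zeb E-box, CAGGTG or CACCTG on the opposite strand, can be read in them directly. Capitals mark each match on either strand in the 250 bases before the RefSeq start. Epcam lies on the plus strand at chr17:87635729-87635978 and has 2 matches. Cldn6 lies on the plus strand at chr17:23679115-23679364 and has 1 match. The GENCODE span of Cldn6 given below begins before the RefSeq start, so the last part of this window, with the match, lies after the GENCODE start. The junction gene Cldn7, which was called higher in the epithelial-high cells, has 2 annotated starts, of which the second at chr11:69965171-69965420 on the plus strand has 2 matches and the other has 0. The table holds no entry for Cdh1.

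Epcam: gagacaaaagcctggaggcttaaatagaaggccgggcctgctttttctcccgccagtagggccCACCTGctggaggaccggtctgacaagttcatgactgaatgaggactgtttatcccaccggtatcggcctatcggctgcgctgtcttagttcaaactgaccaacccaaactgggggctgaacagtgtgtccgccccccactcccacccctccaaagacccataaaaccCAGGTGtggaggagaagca
Cldn6: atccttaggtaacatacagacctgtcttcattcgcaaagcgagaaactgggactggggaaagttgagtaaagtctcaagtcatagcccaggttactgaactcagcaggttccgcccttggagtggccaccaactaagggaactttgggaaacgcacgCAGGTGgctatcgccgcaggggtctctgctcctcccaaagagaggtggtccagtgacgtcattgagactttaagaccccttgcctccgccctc
Cldn7, second start: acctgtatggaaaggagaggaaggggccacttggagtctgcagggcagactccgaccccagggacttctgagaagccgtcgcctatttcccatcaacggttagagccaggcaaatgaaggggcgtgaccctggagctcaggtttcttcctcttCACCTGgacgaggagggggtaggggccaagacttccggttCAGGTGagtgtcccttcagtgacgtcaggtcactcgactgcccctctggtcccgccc

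Over 32851 promoters of the same length in the table, 17.2% held at least 1 match and 2.06% at least 2. A match is a description of letters and not a bound site.

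Cdh1 (ENSMUSG00000000303, GRCm38 chromosome 8, 106603351 to 106670246, plus strand) was read in all 30 epithelial-high cells. Its level there was 6.53 CPM at the lowest, 52.8 at the median and 188.3 at the highest. In the epithelial-low cells it ran from 0 through a median of 0 to 18.6 CPM, with a read in 12 of 30 cells (40%). Since Cdh1 is part of the score, this gap follows from the choice of cells. Only 4 low cells reached the level of the lowest high cell, and no low cell lay above the median of the high cells. With every cell cut down to 100000 randomly drawn reads, 86.7% of the high cells and 16.7% of the low cells still had a Cdh1 read.

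Epcam (ENSMUSG00000045394, chromosome 17, 87635979 to 87651129, plus strand) was read in every cell of both sets. It ran from 171.2 through 489 to 857 CPM in the high cells and from 5.67 through 142.6 to 610 CPM in the low cells. The low cells were thus poor in Epcam but not without it, and 13 of them reached the lowest high cell. Cldn6 (ENSMUSG00000023906, chromosome 17, 23679249 to 23682446, plus strand) ran from 13.2 through 117.6 to 597 CPM in the high cells. In the low cells it ran from 0 through 3.05 to 140 CPM, with a read in 22 of 30 cells (73.3%). For Cldn6, 11 low cells reached the lowest high cell.

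Scores ran without a break from 8.84 to 1.56, and the sets are the ends of this score. A mean over 3 genes does not show whether separate kinds of cell lie beneath it. The high cells scored 6.08 to 8.84 (median 6.90) and the low cells 1.56 to 4.92 (median 3.83). The last cell inside the high set scored 6.08 and the next one 6.04. The last cell inside the low set scored 4.92 and the cell above it 4.95. Within 0.25 of these limits lay 11 and 12 cells, and the widest gap between neighbours was 0.57. When each score gene was left out of its own score, the sets chosen on the remaining pair still differed in it. The difference in mean log2(CPM + 1), high minus low, was then 1.42 for Cdh1, 1.06 for Epcam and 1.91 for Cldn6. In the wild type cells, scored in the same way, these differences were 2.21, 1.32 and 2.26.

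**Figure D1:**
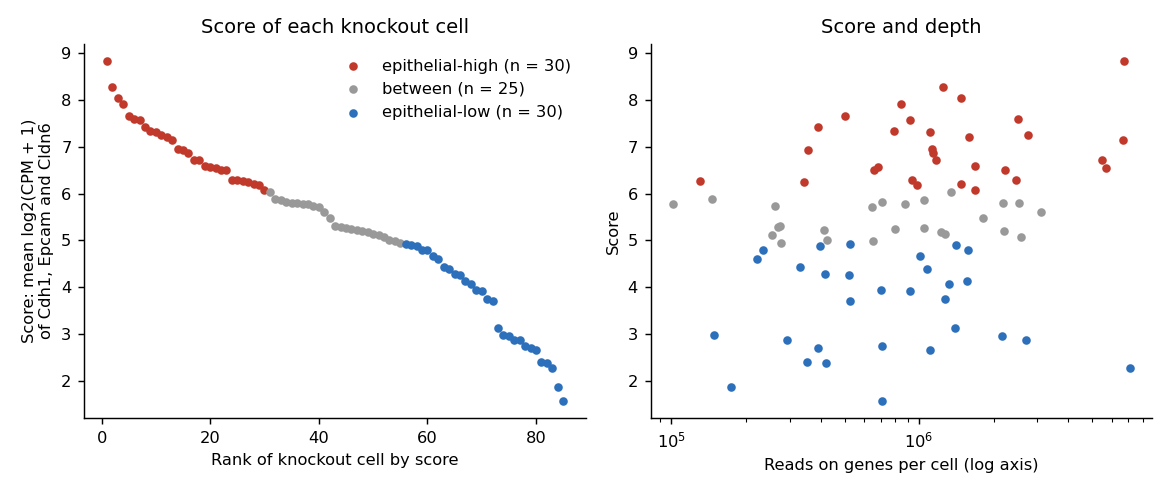
Left, the score of each of the 85 knockout cells (mean log2(CPM + 1) of Cdh1, Epcam and Cldn6) against its rank; right, the same score against reads on genes per cell on a log axis. Each point is a cell, red for the 30 epithelial-high, grey for the 25 between and blue for the 30 epithelial-low cells; scores fall without a break from 8.84 to 1.56, and both sets span shallow and deep cells.

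The sets also differed in depth, in embryo sex and in the numbering of their cells. The high cells had 130646 to 6700760 reads on genes (median 1153626) and the low cells 148742 to 7082534 (median 702261), a ratio of medians of 1.64. The median high cell had reads of 9872 genes and the median low cell 8984. At an equal 100000 reads these were 7137 and 6626.5 genes. Of the 8 deepest knockout cells, 5 were in the high and 2 in the low set, and Spearman's rho of score and depth over the 85 cells was 0.25. Reads of 3 Y-linked genes (Kdm5d, Eif2s3y and Uty) summed above 3 CPM in 23 of 30 high cells (76.7%, 57.7 to 90.1%) and 12 of 30 low cells (40%, 22.7 to 59.4%). Every knockout cell numbered 046 to 085 had Y-linked reads above this limit, and most of those numbered 001 to 045 did not. Most high cells have the later numbers and most low cells the earlier ones. The labels do not say what this order stands for. Mitochondrial genes took a median of 4.39% of reads in high and 4.58% in low cells. No cells had identical counts. The part that depth, embryo sex and the order of the cells' numbers have in the gene differences was not tested. That order and the Y-linked reads largely overlap and cannot be fully told apart here. For many genes below, the difference is also given with the depth trend taken out of the score, within cells with or without Y-linked reads, or on CPM summed over a set, where it then fell short of the limit for a call. Cells without Y-linked reads number only 7 high and 18 low.

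Mesp1, the gene of the reporter (ENSMUSG00000030544, chromosome 7, 79792241 to 79793788, minus strand), was low in both sets. It ran from 0 through 4.74 to 20.8 CPM in the high cells and from 0 through 9.53 to 41.1 CPM in the low cells. On the log2(CPM + 1) scale the means were 2.31 ± 1.35 (SD over 30 cells) and 2.68 ± 1.95, a gap smaller than the spread between cells. The difference lay below 0 in every alternative, from -0.058 for 40 against 40 cells to -0.92 on summed CPM. The wild type high and low cells had medians of 346 and 343 CPM, well above every knockout cell's level at both ends of their own score.

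A gene was called higher or lower when its mean log2(CPM + 1) differed by at least 1 between the sets, among 8573 genes with a mean of at least 10 CPM over the 85 cells and without the score genes. Of these, 944 (11%) were called higher and 2.38% lower in the epithelial-high cells. The median gene differed by 0.21, so the values below are best read against 0.21 and not against 0. Higher genes made up 82.2% of all called. They made up 70.2% when the score was first freed of its trend with depth, which gave 485 higher genes (5.66%) and 2.40% lower at medians of 1042710 and 1040550 reads. They made up 47.6% when CPM were summed over the cells of a set before taking the ratio, with 353 higher and 388 lower. They made up 48.5% when reads were summed first, which lets deep cells weigh more, with 532 higher and 566 lower. Without the 8 deepest cells, 864 genes were called higher (10.1%) and 2.58% lower. Over all the gene lists described below, 13.8% of the distinct measured members were called higher and 6.59% lower, so the lists as a whole held higher calls at a share near that of all genes.

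Other epithelial junction genes lay higher in the epithelial-high cells as a group, though few reached the limit. Of 15 measured members of a list of 33 junction and keratin genes, 13 lay above 0, 5 were called higher (33.3%, against 11% of all genes) and 0 lower, with a median of 0.74 against 0.21 over all genes. The tight junction gene Cldn7 ran from 0 through 14.2 to 183.04 CPM in high cells and from 0 through 0 to 88.5 CPM in low cells, a difference of 1.41. The ranges overlapped, and the sets differed in the share of cells with a read, 20 of 30 (66.7%) against 14 of 30 (46.7%). Spint2, an inhibitor of epithelial surface proteases, ran from 62.4 through 193.3 to 653 CPM against 0 through 141.9 to 543 CPM, a difference of 1.33.

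Plakoglobin (Jup) differed by 1.08 and the junctional adhesion molecule F11r by 1.05. F11r was at 62.1 CPM or more in every high cell and reached down to 0 in the low cells. The simple-epithelium keratins did not follow the junction genes: Krt8 had medians of 35.6 CPM in high and 61.8 in low cells (difference -0.50), and Krt18 4.60 and 4.40 CPM (0.23). Tjp1 (ZO-1) differed by 0.01. Without the 8 deepest cells the difference was 1.07 for Cldn7 and 1.43 for Spint2, and 0.81 for Jup. Cldn7 differed by 0.93 within cells with Y-linked reads, and Spint2 by 0.98 with the depth trend removed and 0.70 on summed CPM.

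The list of 11 transcription factors of the epithelial to mesenchymal transition had 2 members above 10 CPM, and neither was called. Snai1, the Snail repressor active at the streak, was read in 29 of 30 high and all 30 low cells. It ran from 0 through 78.9 to 335.9 CPM in high and from 2.86 through 87.5 to 469 CPM in low cells, a difference of -0.31. Snai1 was thus present at like medians at both ends of the score. Across the alternatives its difference ran from -0.94 on thinned sets taken again to 0.36 within cells without Y-linked reads. Tcf4 differed by -0.72. Zeb1 and Zeb2, the other repressors of the E-box, had means of 1.91 and 6.50 CPM over the knockout cells, under the limit for a call.

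Mesenchymal genes lay on both sides of 0, and the only calls were lower. Of 13 measured members of a list of 15, 0 were called higher (against 11% of all genes) and 2 lower (15.4%, against 2.38%). Below 0 lay 7, and beside 0.21 for all genes the list median was -0.11. That median changed sign under TMM scaling (0.071), under median-of-ratios scaling (0.057), on sets chosen without Epcam (0.12) and on sets taken again after thinning (0.18). The median of all genes was then 0.29, 0.34, 0.19 and 0.19. It lay above the list median in each case, though only slightly after thinning. Itga5, the fibronectin receptor subunit, ran from 0 through 14.5 to 157.5 CPM in high and from 0 through 67.8 to 490 CPM in low cells, a difference of -1.47. Cdh11, a mesenchymal cadherin, ran from 0 through 28.8 to 161.1 CPM in high and from 0 through 84 to 335.02 CPM in low cells, a difference of -1.33. Both spread over a wide range in either set, with overlapping cells.

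Fibronectin itself (Fn1) ran from 88.3 through 281.3 to 1214 CPM in high and from 188.8 through 635 to 1655 CPM in low cells, a difference of -0.72 that was not called. N-cadherin (Cdh2) differed by -0.63 and vimentin (Vim) by 0.13, with Vim medians of 45 and 46.9 CPM. The matrix proteases Mmp14 and Mmp2 lay on the other side, at 0.86 and 0.85. The low cells were thus low in the score genes without being uniformly high in mesenchymal ones. In the cells with Y-linked reads alone, Itga5 differed by -1.99 and Cdh11 by -1.40. In those without, they differed by -0.65 and -0.50. The proteases changed sign between these groups, from 1.78 with to -1.43 without Y-linked reads for Mmp14 and from 1.42 to -0.44 for Mmp2.

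Epiblast and pluripotency genes lay higher in the epithelial-high cells. Of 12 measured members of a list of 18, 11 lay above 0, 5 were called higher (41.7%, against 11% of all genes) and 0 lower, with a median of 0.81. L1td1, an RNA-binding protein of pluripotent cells, ran from 0 through 46.4 to 444 CPM in high cells. In low cells it ran from 0 through 1.96 to 370 CPM, a difference of 2.09. A read was found in 26 of 30 high cells (86.7%) and 19 of 30 low cells (63.3%). The difference was 0.99 within cells without Y-linked reads, 0.99 on summed CPM and 0.18 on the CPM of summed reads, so L1td1 was not called under these.

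The kinase Pim2 ran from 1.26 through 221.5 to 698 CPM in high and from 0 through 120.9 to 711 CPM in low cells, a difference of 1.35. The epiblast ligand Fgf5 ran from 0 through 144.9 to 668 CPM against 0 through 88.9 to 892 CPM, a difference of 1.02. For both, the highest low cell lay above the highest high cell. Slc7a3, an arginine transporter, differed by 1.45. Within cells with Y-linked reads Pim2 differed by 0.80 and Slc7a3 by 0.60. On summed CPM Pim2 differed by 0.49 and Fgf5 by 0.21.

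Utf1, a chromatin protein of pluripotent cells, differed by 1.79, but 1 cell held most of its reads. That cell, the highest by score, had 2539 CPM and gave 96.2% of the Utf1 reads of the high set, and the next had 60.5 CPM. Without it the difference was 1.49, and within cells without Y-linked reads 0.64. Utf1 had a read in 20 of 30 high cells (66.7%) and 8 of 30 low cells (26.7%). Of the core factors, Pou5f1 (OCT4) differed by 0.65, with medians of 372 and 246.6 CPM, and Nanog by 0.71, with medians of 116.6 and 65.5 CPM. The DNA methyltransferase Dnmt3b differed by 0.91. Otx2 lay the other way, from 11.6 through 142.8 to 571 CPM in high and from 45.4 through 221.6 to 528 CPM in low cells, a difference of -0.58.

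**Figure D2:**
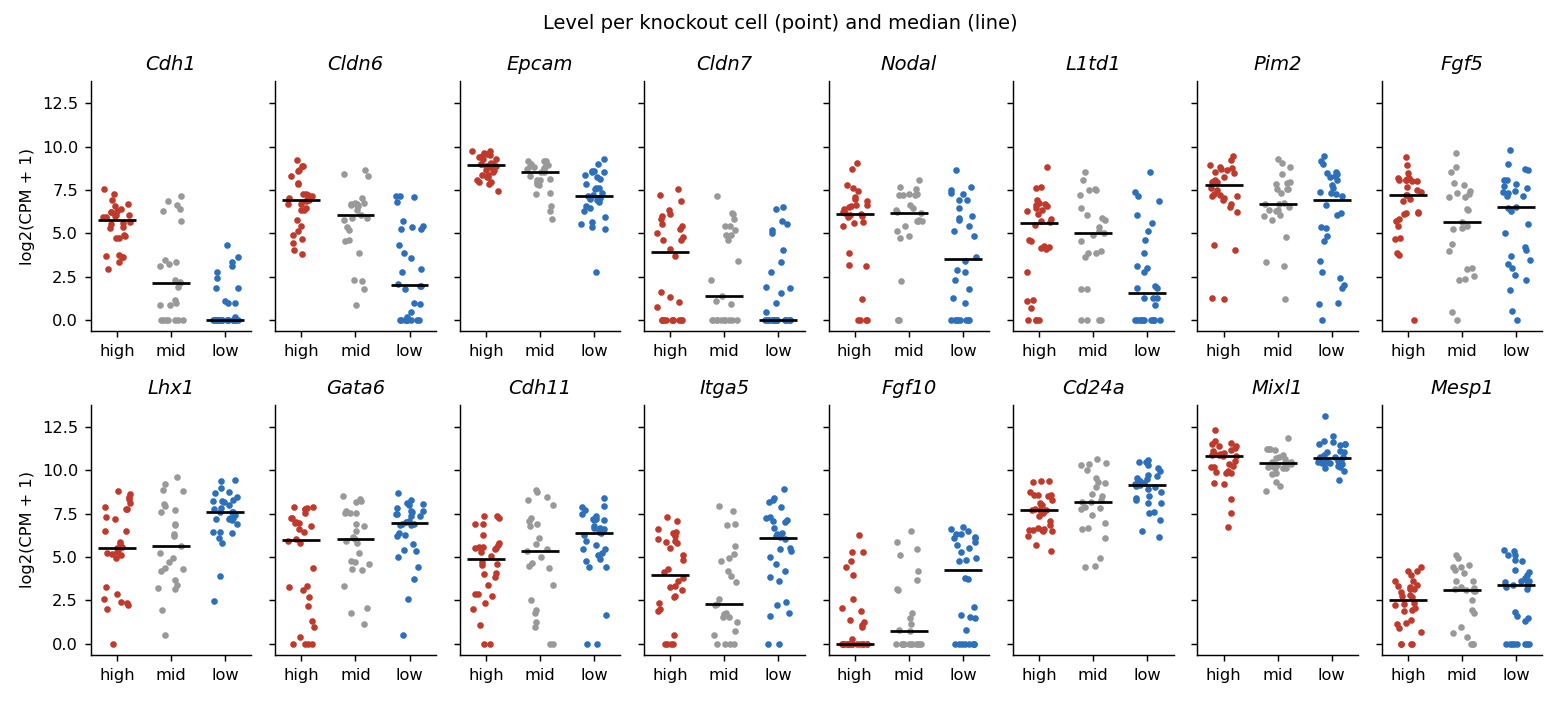
Level of 16 genes in each knockout cell, as log2(CPM + 1), in the epithelial-high (red, 30 cells), between (grey, 25) and epithelial-low (blue, 30) sets; each point is a cell and the black line the median. Cdh1 and Cldn6, used in the score, part the sets most, L1td1 and Nodal are lower in the low set with overlap, and Lhx1 and Cd24a are higher in it. Mixl1 and Mesp1 overlap widely, with a lower Mesp1 median in the high set.

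Genes of the primitive streak program gave 1 call each way. Of 11 measured of 14, 1 was called higher (9.09%, against 11% of all genes) and 1 lower (9.09%, against 2.38%). Above 0 lay 3 and below it 8, and the median was -0.16. Nodal, the TGF-beta family ligand that patterns the epiblast and induces the streak, ran from 0 through 69 to 520 CPM in high cells and from 0 through 10.4 to 398 CPM in low cells, a difference of 1.60. Its 25 cells between the sets had a median of 69.8 CPM, the same as the high cells within 1 CPM, and the lower median was that of the low cells. Lhx1, a LIM homeodomain factor of early mesendoderm, ran from 0 through 45.6 to 443 CPM in high and from 4.55 through 190 to 679 CPM in low cells, a difference of -1.87. Within cells without Y-linked reads Lhx1 differed by -0.86, and the list median was 0.32.

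The general streak factors were not called, though their differences lay below the 0.21 of the median gene. Mixl1 ran from 102.8 through 1815 to 5091 CPM in high and from 696 through 1671 to 8937 CPM in low cells, a difference of -0.46. Brachyury (T) had medians of 381 and 282.05 CPM and differed by -0.16, and Eomes had medians of 342 and 434 CPM and differed by -0.31. These 3 were read in all 60 cells, so cells at both ends of the score carried streak transcripts.

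Beyond the ligand, the other measured genes of the Nodal pathway were not called. Of 13 measured of 14, 12 lay above 0 and 1 was called, Nodal (7.69%, against 11% of all genes). The list median was 0.24 beside 0.21 for all genes. The co-receptor gene Tdgf1 (Cripto) differed by 0.01, the antagonists Lefty1 and Lefty2 by 0.75 and 0.61, and the effector gene Smad2 by 0.10. Without Cldn6 in the score, Nodal differed by 0.99, within cells with Y-linked reads by 0.81 and on summed CPM by 0.75. Lefty2 differed by 1.95 within cells with and by -0.89 within cells without Y-linked reads.

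Among FGF genes, calls were made in both directions. Of 13 measured of 17, 3 were called higher (Fgf5, Fgf15 and the ERK target Etv4; 23.1%, against 11% of all genes) and 1 lower (Fgf10; 7.69%, against 2.38%). The median was 0.070, and -0.22 with the depth trend removed. Fgf10, a ligand of mesenchymal cells, ran from 0 through 0 to 74.5 CPM in high and from 0 through 19.2 to 106.2 CPM in low cells, a difference of -2.05. A read was found in 14 of 30 high cells (46.7%) and 22 of 30 low cells (73.3%). Fgf17, which was chosen after its values were seen and is on no list, ran from 0 through 15.5 to 200 CPM in high and from 0 through 0 to 21.5 CPM in low cells, a difference of 2.29. Both kept a difference of at least 1 under every alternative in which they were measured.

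Fgf15 differed by 1.39 and Etv4 by 1.27. Within cells with Y-linked reads Fgf15 differed by 0.93, and within those without Etv4 differed by 0.29. Fgf8, the streak ligand needed for cells to leave it, differed by 0.43, and its receptor Fgfr1 by -0.57. The feedback genes Dusp6 and Spry2 differed by 0.17 and 0.24, near the median of all genes. Fgf15 and Etv4 had medians under 20 CPM in both sets.

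WNT and BMP genes gave few calls. Of 10 measured WNT ligands and targets of 15, the ligand Wnt8a was called higher (1.22) and the antagonist Dkk1 lower (-1.34). Each is 10% of those measured, against 11% of all genes called higher and 2.38% lower. The list median was 0.34. Dkk1 had medians of 15.6 CPM in high and 52.9 in low cells, but on summed CPM its difference was -0.08, and on the CPM of reads summed over a set 0.099. Of 9 measured BMP ligands and response genes of 13, the ligand Bmp7 was called higher (1.19, medians 31 and 4.16 CPM). The target Msx2 was called lower (-1.09, medians 1.54 and 30.7 CPM). Each is 11.1% of those measured, against the same shares of all genes. Without the 8 deepest cells Bmp7 differed by 0.71 and Msx2 by -0.44. Within cells without Y-linked reads Wnt8a differed by 0.89 and Bmp7 by 0.15. The median of the BMP list was 0.15, and -0.02 with the depth trend removed.

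Basement membrane genes, which encode the sheet that epithelial cells rest on, gave 2 higher calls (18.2%, against 11% of all genes) and 1 lower (9.09%, against 2.38%) among 11 measured of 18. Their median was 0.027, and -0.34 within cells without Y-linked reads. Lama5, a laminin chain, ran from 0 through 30.6 to 394 CPM in high and from 0 through 2.14 to 375 CPM in low cells, a difference of 1.73. Nid2, nidogen-2, had medians of 21.1 and 0.071 CPM and differed by 1.65. On summed CPM Nid2 differed by 0.78, on the CPM of summed reads by 0.13 and within cells with Y-linked reads by 0.30. Lama5 differed by 0.58 on summed CPM and by 0.99 within cells with Y-linked reads. The lower gene was Itga5, given above.

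Genes of mesoderm derivatives lay below 0 by their list medians, not all of which kept their sign. Of 6 measured nascent mesoderm genes of 17, the apelin receptor Aplnr was called lower (-1.01, medians 15 and 41.9 CPM). That is 16.7%, against 2.38% of all genes, and the list median was -0.32. With the depth trend removed Aplnr differed by -0.24, and within cells with Y-linked reads by -0.09. The list median was 0.05 without the 8 deepest cells and 0.39 within cells with Y-linked reads. Of 4 measured cardiac progenitor genes of 14, 3 were called lower (75%, against 2.38% of all genes) and 0 higher, with a median of -1.19, which was -0.55 with the depth trend removed. Gata6, a GATA factor of mesendoderm and heart, ran from 0 through 61.7 to 236.6 CPM in high and from 0.424 through 123.02 to 407 CPM in low cells, a difference of -1.78. Gata4 ran from 0.351 through 41.6 to 283.2 CPM against 1.27 through 101.9 to 332.6 CPM, a difference of -1.26, and Hand2 differed by -1.11. The fourth, Gata5, differed by -0.997 and lay just inside the limit. Of 5 measured extraembryonic mesoderm genes of 12, Foxf1 (-1.12) and Msx2 were called lower (40%, against 2.38% of all genes). Msx2 differed by -0.44 without the 8 deepest cells and by -0.05 on sets taken again without them. The list median was -0.57, which was -0.80 with the depth trend removed and -0.05 on those sets taken again.

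For several of these genes the reads did not follow a cell's depth, so their CPM is lower in deeper cells. The slope of log2(reads + 1) on log2 depth over the 85 cells was 0.93 for the median gene. It was -0.07 for Gata4, -0.10 for Hand2 and Gata5 and -0.02 for Foxf1, but 0.59 for Gata6 and 0.61 for Lhx1. In all, 3.42% of the genes measured had a slope under 0.2, and they made up 84 of the genes called lower (41.2%) and 3 of the 944 called higher (0.318%). With the depth trend taken out of the score, Gata4 differed by -0.71, Hand2 by -0.39 and Foxf1 by -0.41, while Gata6 differed by -1.38 and Lhx1 by -1.34. On summed CPM Gata6 differed by -0.73. The same slope marks the 95 genes that separate the library sets, at a median of -0.06. Their summed reads had a median of 2475 in high and 3024 in low cells.

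**Figure D3:**
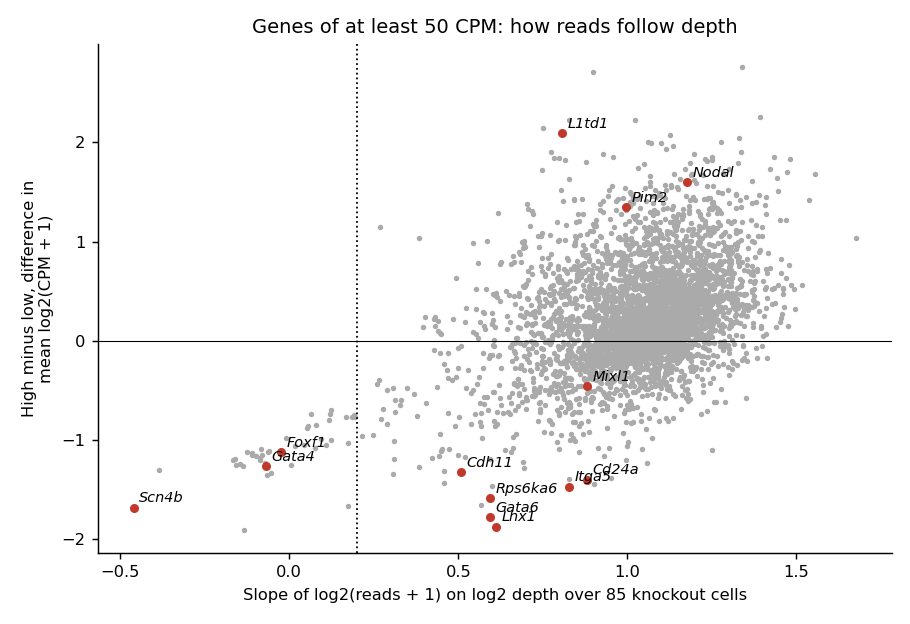
Difference in mean log2(CPM + 1) between the epithelial-high and epithelial-low knockout cells against the slope of log2(reads + 1) on log2 depth over 85 cells, for genes of at least 50 CPM; each point is a gene and the dotted line marks a slope of 0.2. Left of the line lie 45 genes, of which 32 were called lower, among them Scn4b, Gata4 and Foxf1; Lhx1, Gata6, Itga5 and Cdh11 lie right of it.

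Markers of visceral endoderm and of blood were at or near 0 in most cells of both sets. The 13 visceral endoderm genes summed to at most 17.1 CPM in any high and 87.9 CPM in any low cell. Apoa4, Apob, Apom, Amn, Hnf4a and Spink1 had no read in the 60 cells, so up to 5% of cells could hold a read by this count. The 12 blood and marrow genes summed to a median of 0 CPM in both sets, with the highest cells at 111.08 and 210 CPM, and 7 of them had no read. Of 9 extraembryonic ectoderm genes 1 was measured, Tfap2c, at a difference of -0.02. The 14 definitive endoderm and axial genes were present, with summed medians of 261.9 CPM in high and 324.04 in low cells. Of the 4 measured, Trh was called higher (1.33, and 0.70 with the depth trend removed), which is 25% against 11% of all genes. The 9 germ cell genes summed to medians of 321.5 and 459.9 CPM. Among the 6 measured, Ifitm3, which is also expressed in the epiblast, was called higher (1.86, medians 28.3 and 3.42 CPM). That is 16.7%, against 11% of all genes. The pluripotency factor Prdm14 differed by 0.34.

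Cell cycle genes differed little as groups. None of 15 S phase genes was called, with a median of 0.27 beside the 0.21 of all genes. Of 16 genes of G2 and mitosis, the kinase Aurkb (1.15) and the kinesin Kif23 (1.02) were called higher (12.5%, near the 11% of all genes). The list median was -0.06. On summed CPM Aurkb differed by 0.32 and Kif23 by 0.68. Of 10 measured p53 and apoptosis genes of 12, the stress sensor Sesn2 was called higher (1.93, medians 8.86 and 0 CPM). That is 10%, near the share of all genes, and the list median was 0.17. Of 6 measured immediate early and stress genes of 13, Egr1 was called higher (1.13), which is 16.7% against 11% of all genes. The median was 0.56, the third highest of the lists in knockout, and was 0.11 within cells with and 1.09 within cells without Y-linked reads. Egr1 differed by 0.11 within cells with Y-linked reads, and on the CPM of summed reads it differed by -0.51.

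**Figure D4:**
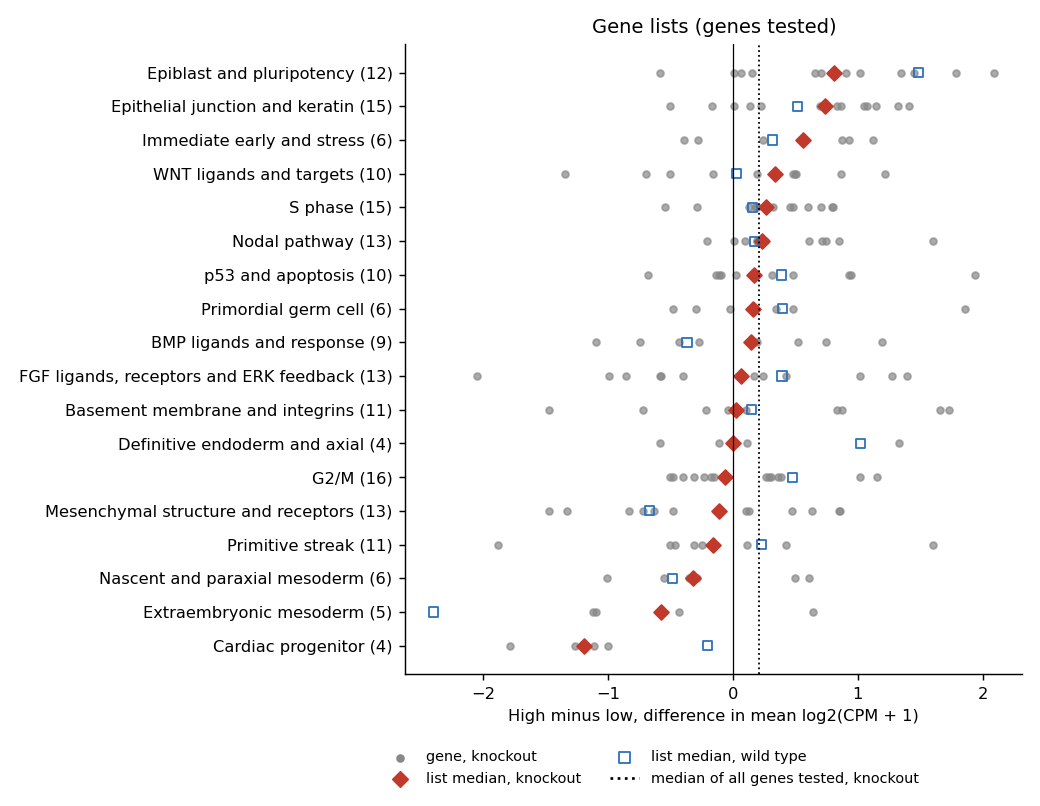
Difference in mean log2(CPM + 1), epithelial-high minus epithelial-low, for the measured genes of each list (grey points), with the list median in knockout cells (red diamond) and in wild type cells scored by the same rule (blue square); the dotted line is the median of all genes in knockout, 0.21. Epiblast (0.81) and junction genes (0.74) lie highest and cardiac genes (-1.19, 4 measured, -0.55 with the depth trend removed) lowest. The mesenchymal median (-0.11) changed sign under TMM, under median-of-ratios scaling, without Epcam in the score and on thinned sets. It lay below the median of all genes in each of these.

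Of the 12 genes of largest difference in each direction that passed the filters for named genes, Lhx1 and Gata6 are on the lists and the others are on none. The most different was Fsd1, which encodes a microtubule-associated protein, at 0 through 27.7 to 189.3 CPM in high and 0 through 0 to 75.1 CPM in low cells, a difference of 3.15. A read was found in 25 of 30 high cells (83.3%) and 11 of 30 low cells (36.7%). Next came Kcnk1, a potassium channel, at 0 through 60.4 to 254.7 CPM against 0 through 2.71 to 297.98 CPM, a difference of 2.88. The highest low cell thus lay above the highest high cell for Kcnk1, while its low-set median lay near 0.

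Nectin2, an adhesion molecule of adherens junctions, ran from 0 through 54.2 to 233.9 CPM in high and from 0 through 5.09 to 112.05 CPM in low cells, a difference of 2.84. Pdpn, podoplanin, a membrane glycoprotein, ran from 0 through 22 to 160 CPM against 0 through 0 to 47 CPM, a difference of 2.72. Pdk1, the kinase that restrains pyruvate dehydrogenase, differed by 2.71, with medians of 57.4 and 2.23 CPM. Dpysl3, a cytoskeletal regulator, differed by 2.62, the neurofilament gene Nefl by 2.39 and the lipid droplet gene Plin2 by 2.35.

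The others were D10Jhu81e, Cenpo, Ric8a and Sgf29, at 2.51, 2.49, 2.49 and 2.45. None of the 12 had a slope under 0.2. Pdpn, Kcnk1, Nectin2, Fsd1, Pdk1, Nefl, Cenpo, Ric8a and Sgf29 kept a difference of at least 1 under every alternative in which they were measured. D10Jhu81e, Dpysl3 and Plin2 did not, with lowest values that include 0.58 for D10Jhu81e in cells with Y-linked reads and the depth trend removed, 0.81 for Dpysl3 on the CPM of summed reads and 0.23 for Plin2 in cells without Y-linked reads.

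At the low end, the largest differences were those of Qtrt2 (-2.16), a subunit of the enzyme that places queuosine in transfer RNA, and Acadsb (-1.98), a mitochondrial acyl-CoA dehydrogenase. Qtrt2 ran from 0 through 0.163 to 68.9 CPM in high and from 0 through 19 to 417 CPM in low cells, and stayed past -1 under every alternative in which it was measured. Lhx1 and Gata6 followed. Rps6ka6, a kinase of the RSK family that acts downstream of ERK, ran from 0 through 72.8 to 383 CPM in high and from 0 through 174.98 to 585 CPM in low cells, a difference of -1.59. Kalrn (-1.57) and Mtg1 (-1.65) differed in sign between cells with and without Y-linked reads. Mtg1 differed by 0.43 in cells with Y-linked reads and by -4.60 in those without, and Kalrn by -2.37 and 0.070.

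The other 5, Evi5, Pkd2, Scn4b, Asb4 and Snx24, had slopes under 0.2. Scn4b, a sodium channel subunit, had the slope -0.46 and differed by -1.69, and by -0.82 with the depth trend removed. Cd24a, a surface glycoprotein of many progenitors that was chosen after its values were seen, ran from 39.3 through 206.002 to 669 CPM in high and from 70.7 through 572 to 1553 CPM in low cells, a difference of -1.40. Its slope was 0.88, and it was read in all 60 cells. Within cells with Y-linked reads it differed by -0.89.

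The same rule was then applied to the 83 wild type cells at E6.75 of the same library set. Their 30 highest scored 3.65 to 7.96 and their 30 lowest 0 to 2.57, so wild type scores lay lower than those of the knockout. Only 8 of 85 knockout cells (9.41%) lay at or below the wild type median score of 2.83, and 12 of 83 wild type cells (14.5%) reached the lower limit of the knockout high set. In the wild type low cells Cdh1 and Cldn6 had medians of 0 CPM, with highest cells at 2.22 and 1.11 CPM, and Epcam ran from 0 through 67.3 to 207.9 CPM. Depth differed less than in knockout, with medians of 721368 and 706418 reads. Y-linked reads were found in 23 of 30 wild type high (76.7%) and 16 of 30 low cells (53.3%). Differences between the genotypes were not tested, since the knockout and the wild type are 1 sample each.

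In wild type, 614 genes (7.16%) were called higher and 3.11% lower among the same 8573. Of the 944 genes higher in knockout, 643 (68.1%) lay above 0 in wild type, against 57.6% of all genes measured, and 15.1% were past 1. Of those lower in knockout, 55.4% lay below 0, against 42.4% of all, and 11 (5.39%) were past -1. Most single genes called in knockout were thus not called in wild type. Of the 12 largest in the high direction, 11 had the same sign in wild type and 4 were past 1, namely Fsd1 (1.46), Kcnk1 (1.26), Pdpn (1.11) and Nefl (1.59). Nectin2 was at 0.07. Of the 12 in the low direction, 7 had the same sign and 0 were past -1, with Lhx1 at -0.28 and Gata6 at 0.14.

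The epiblast genes were higher in the high set in both genotypes, with list medians of 0.81 in knockout and 1.49 in wild type. In wild type Fgf5 differed by 3.14, Pim2 by 2.98, L1td1 by 2.63 and Nodal by 2.40. Wild type Fgf5 ran from 0 through 51.9 to 407 CPM in high and from 0 through 1.13 to 192.9 CPM in low cells, while the knockout low cells had a median of 88.9 CPM. Wild type Nodal had medians of 27.2 and 0 CPM. The junction list had medians of 0.74 in knockout and 0.51 in wild type, and Cldn7 differed by 1.41 and 2.10. Fgf17 (2.29 and 1.82) and Fgf10 (-2.05 and -2.02) had differences of like size in both.

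Several mesoderm genes had larger differences along the score in wild type than in knockout cells. This contrast between genotypes was not tested, and for some genes it depended on the Y-linked split of the knockout cells. The wild type medians were -2.40 for the extraembryonic mesoderm list and -2.50 for the 2 measured haemato-endothelial genes, against -0.57 and -0.32 in knockout. Kdr, the VEGF receptor of the first blood and endothelial precursors, ran from 0 through 109.2 to 709 CPM in wild type low cells and from 0 through 9.29 to 306.1 CPM in wild type high cells. In knockout its medians were 0 CPM in both sets, with highest cells at 40.2 CPM in high and 114.9 in low cells. Etv2, a transcription factor of that lineage, differed by -2.59 in wild type, with medians of 9.0 and 36.9 CPM. In knockout it differed by 0.25, with medians of 8.10 and 4.96 CPM.

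Less uniform were Tbx3 and Pmp22 of the extraembryonic mesoderm list and Phlda2 of the nascent mesoderm list. Tbx3 differed by -3.13 in wild type and 0.65 in knockout, with low-set medians of 49.7 and 0 CPM. Pmp22 differed by -3.05 and -0.57, with low-set medians of 71.5 and 9.39 CPM. In knockout it differed by 0.92 within cells with Y-linked reads and by -3.07 within those without, the latter as large as in wild type. Phlda2 differed by -2.13 and -0.55, with low-set medians of 558 and 52.8 CPM. In knockout it differed by 0.86 within cells with and by -1.71 within cells without Y-linked reads, and by -0.02 with the depth trend removed. Among mesenchymal genes, whose list median was -0.67 in wild type, N-cadherin differed by -2.10 there and by -0.63 in knockout. The epithelial-low knockout cells thus had lower medians than the wild type low cells of Tbx3, Pmp22 and Phlda2 and higher medians of Epcam and Cldn6.

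A few genes went opposite ways along the score. Cd24a differed by 1.70 in wild type, with medians of 348 and 180 CPM, against -1.40 in knockout. Otx2 differed by 1.78 and -0.58, Mtg1 by 1.48 and -1.65 and Itga5 by 0.56 and -1.47. In the knockout low cells, Otx2 (221.6 CPM) and Cd24a (572 CPM) had medians near or above those of the wild type high cells (213.8 and 348 CPM). Within knockout cells without Y-linked reads Otx2 differed by 0.16 and Mtg1 by -4.60. Within those with Y-linked reads Mtg1 differed by 0.43, the same sign as in wild type. None of these contrasts was tested.

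**Figure D5:**
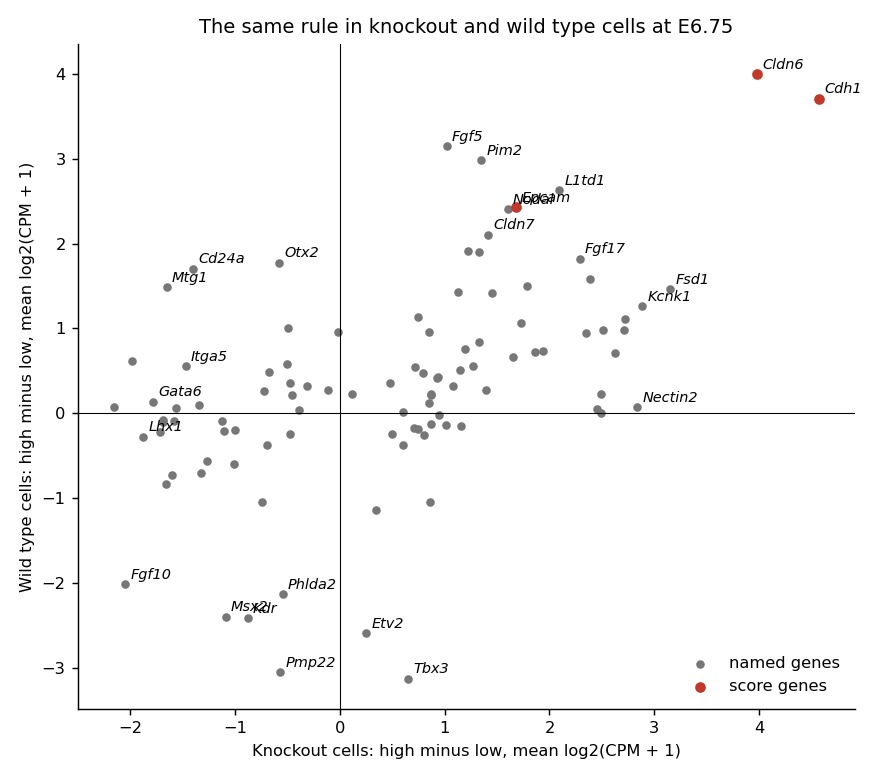
Difference in mean log2(CPM + 1), high minus low, for named genes in knockout cells (x axis) and in wild type cells of the same library set at E6.75 (y axis), with the score genes in red. Nodal, L1td1, Pim2, Fgf5 and Fgf17 lie high in both, Fgf10 low in both, Tbx3, Pmp22, Etv2 and Kdr past -2 in wild type and between -1 and 1 in knockout, and Cd24a and Otx2 in the quadrant of opposite signs.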

How the data were processed

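Each cell was sequenced as a library of its own. The authors deposited raw counts of reads for every gene and cell; GSNAP and HTSeq 0.5.3p3 are the tools and mm10 the build, per the submitters' processing notes. The sources used here name no parameters, annotation or strand setting. The table held 40912 genes, of which 40254 matched a symbol in GENCODE M21, and 0 columns had no sample. Reads without molecular identifiers include duplicates, so the intervals (95%) and the upper limits for a count of 0 (3 counts) cover counting error only. No doublet caller was run.

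Counts were scaled to CPM by each cell's reads on genes, which ran from 101895 to 7082534 in the knockout cells. The value of a gene is the difference in mean log2(CPM + 1) between the 30 highest and 30 lowest cells, which understates low genes. With 1 sample a group, and sets chosen on the readout, no test was run. Genes needed a mean of 10 CPM, and a call needed a difference of 1. The members, the 23 gene lists and the rules were chosen with earlier results of these data known. Named genes were Mesp1, the 12 of largest difference in each direction (at least 20 CPM, a read in 50% of cells of the higher set; mitochondrial, Xist, Y-linked, predicted and library-set genes left out) and up to 4 examples of each list; other names were chosen after their values were seen. A library set held the cells in which 5 or more of 8 genes had a read: Dusp15, Foxe1, Hoxd13, Kcnk12, Pou3f3, Six3, Sox3 and Vax1.

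The 19 alternatives changed the cells left out, thinning (100000 reads), scaling (factors of edgeR 4.0.16 and DESeq2 1.42.0, used for nothing else), the amount added to CPM (10), set sizes (20 or 40 cells), the minimum (1 or 50 CPM), the score genes, the depth trend, summed CPM and Y-linked reads. Added after seeing the data were leaving out genes of slope under 0.2, the CPM of reads summed over a set, and the depth trend with Y-linked cells only. The code for the difference was checked on simulated counts, with known changes far larger than the limit for a call, between fixed sets. That check does not show how many of the calls here would arise without a change. Tools were Python 3.11.15, numpy 2.4.6, pandas 2.3.3, scipy 1.17.1 and R 4.3.3.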

Additional observations from a re-analysis of the deposited data

How the results depend on the processing

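Of 57 named genes past a difference of 1, 12 stayed past it under every alternative that measured them, 46 without the 8 deepest cells and 43 with the depth trend removed. Of their 1212 values, 9 changed sign: Mtg1 in cells with Y-linked reads (0.43) and, with the depth trend removed as well, Mtg1 (0.87), Aplnr (0.68), Foxf1 (0.16) and Hand2 (0.19); Kalrn (0.070) and Dkk1 (0.065) in cells without Y-linked reads; Dkk1 (0.099) and Egr1 (-0.51) on the CPM of summed reads. Of the genes measured, 11% were called higher. The share was 5.66% with the depth trend removed, 1.13% with 10 CPM added, 4.70% for 40 against 40 cells, 7.95% at a minimum of 50 CPM, 4.12% on summed CPM, 6.21% on summed reads and 23.002% in cells without Y-linked reads. The share called lower (2.38%) was 3.64% after thinning, 0.362% with 10 CPM added, 4.30% for 20 against 20 and 1.45% for 40 against 40 cells, 1.82% at 50 CPM, 4.53% on summed CPM, 6.60% on summed reads, 5.20% with and 5.74% without Y-linked reads, 1.45% without genes of slope under 0.2, and 6.42% with the trend removed in cells with Y-linked reads. In that last setting higher genes were 53.8% of those called.

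The epiblast median (0.81) was 1.32 for 20 against 20 cells, 0.48 on summed CPM, 0.45 on summed reads, 0.50 without Cldn6 in the score and 0.39 with the trend removed in cells with Y-linked reads. The mesenchymal median (-0.11) was not stable. It was 0.18 on thinned sets taken again, 0.071 with TMM, 0.057 with median-of-ratios and 0.12 without Epcam in the score. It was -0.38 without the 8 deepest cells, -0.35 without the depth trend, -0.20 with 10 CPM added, -0.33 and -0.31 for 20 and 40 cells a set, -0.35 at a minimum of 1 CPM, -0.28 on summed CPM, -0.48 on summed reads, -0.55 and -0.068 without Cdh1 and Cldn6, -0.57 with and -0.34 without Y-linked reads, -0.0033 without genes of slope under 0.2 and -0.57 with the trend removed in cells with Y-linked reads. The median of all genes was 0.29 with TMM and 0.34 with median-of-ratios. It was 0.19 without Epcam in the score and 0.19 on thinned sets taken again. In each of these it lay above the mesenchymal median. In wild type cells without Y-linked reads, 44.4% of the genes higher in knockout lay above 0, against 46.2% of all. Except where the alternative's own construction gives it (fewer genes or cells, a larger amount added), the cause was not tested.

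No paired analysis was possible because the cells' numbers name single cells of 1 group, in an order the labels do not explain, and no test was run. Depth limits genes near 1 read in the shallowest cell: at 100000 reads, 1 read is about the minimum of 10 CPM.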
